A study of Sus scrofa with 6 samples.

Results

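Smooth muscle cells and pericytes surround the small vessels of skeletal muscle, and 10 genes that mark them or serve their contraction were examined in longissimus dorsi, the long muscle of the back, of Nanyang black pigs. They were chosen by name from the 25878 genes of the expression table, with earlier results of these data known. Counts among the 10 set beside all genes are therefore description and not a test. Of the 10, 9 carry their symbol in the table, and FLNA, whose symbol is blank there, was found by its gene ID. The genes are CNN1, ACTA2, MYH11, TAGLN, MYLK, LMOD1 and SMTN of the contractile apparatus, FLNA of the actin network, and RGS5 and PDGFRB of pericytes. The HF group (high-fat deposition) held 3 pigs and the LF group (low-fat deposition) 3 pigs, with 1 library of total RNA per pig. Both groups are untreated pigs of a single indigenous Chinese breed, described as related females from a single pen, and 180 days old by the deposited labels, although the study's own text gives a later age. The groups differ in how much fat the animals laid down and not by a treatment, so fat deposition and whatever accompanies it in these pigs cannot be told apart. Expression is given in FPKM, the number of fragments scaled to transcript length and to the mapped fragments of each library.

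In a contracting smooth muscle cell, the kinase encoded by MYLK phosphorylates the myosin light chain, and the myosin of MYH11 then pulls on filaments of the actin of ACTA2. Calponin (CNN1), transgelin (TAGLN), smoothelin (SMTN) and leiomodin (LMOD1) bind these actin filaments, and filamin A (FLNA) crosslinks actin in many cell types. Genes of this apparatus share control by the transcription factor SRF and its partner myocardin. Pericytes wrap capillaries, contract little and are recognised by RGS5, a brake on G protein signalling, and by PDGFRB, the receptor for a growth factor that endothelial cells secrete. In muscle, the smooth muscle of arterioles sets blood flow to the fibres.

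The libraries were of skeletal muscle by their markers. The summed FPKM of 10 listed muscle fibre genes lay between 18633 and 24763 in the HF pigs and between 23305 and 32825 in the LF pigs. One abundant fibre gene, the skeletal actin ACTA1, is listed at 0 in HF01 and HF03 and at 13731 FPKM in HF02, against 10272 to 15140 FPKM in the LF pigs, so an exact 0 in this table need not mean absence of the message. No smooth muscle or pericyte gene was listed at 0 in any library. The library of LF02 stood apart from the others before any comparison. Its FPKM values summed to 598096 over all genes, against 734973 to 961903 in the other 5 libraries, and its most abundant gene held 7% of that sum, against 20.6% to 36.4%. The part of this in the values of LF02 was not tested, and the adjusted p of each of the 10 genes is also given without that pig. Read totals per library were not used here, and FPKM does not give the number of fragments behind a single value.

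All 10 genes had a higher fitted mean in the HF group, as did 48.1% of all genes tested. Their median log2 fold change, HF over LF on the scale of log2(FPKM + 0.1), was 1.47, whereas the median over all 11136 genes tested, those that averaged 0.5 FPKM or more, was -0.03. With limma, which fits all these genes together, 0 of the 10 passed an adjusted p (Benjamini-Hochberg over all genes tested) under 0.05, a threshold that 8 genes of the table passed (0.0718%). At an adjusted p under 0.10, 3 of the 10 were higher in HF (CNN1, MYLK and FLNA), beside 2.83% of all genes tested. At an unadjusted p under 0.05, 7 of the 10 were higher and 0 lower, beside 11.0% and 13.8% of all genes. Every HF pig lay above every LF pig in 4 of the 10 (CNN1, MYLK, SMTN and FLNA), a pattern found in 12.8% of all genes tested. In 0 of the 10 did every HF pig lie below every LF pig, beside 17.1% of all genes. In tissue RNA, more cells of a type and more RNA per cell cannot be told apart.

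**Figure D1:**
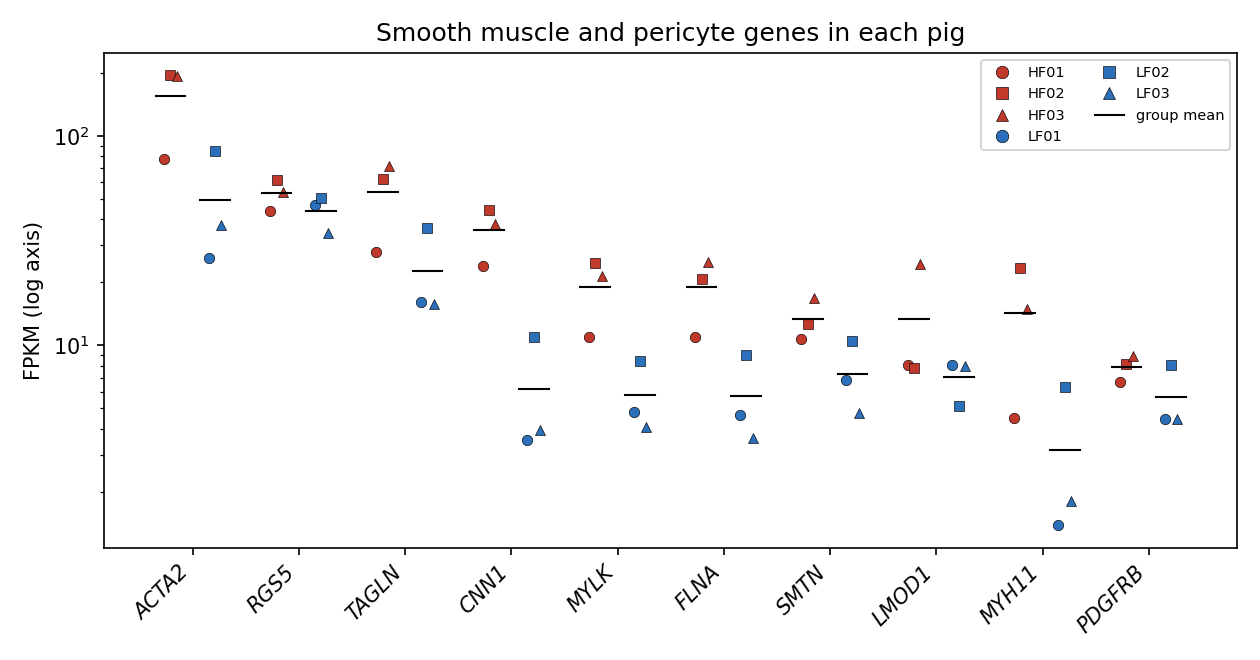
FPKM of the 10 genes in each pig, on a log axis, with the HF pigs (red) left of the LF pigs (blue) and a line at each group mean (n = 3 each). LF02 (blue square) was the highest LF pig and HF01 (red circle) the lowest HF pig in 9 of the 10 genes.

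Calponin differed most of the 10 genes. CNN1, on chromosome 2 of Sscrofa11.1 from 70183234 to 70190758, measured 24.0, 44.1 and 38.1 FPKM in the HF pigs 01 to 03, against 3.55, 10.99 and 3.93 FPKM in the LF pigs 01 to 03 (written HF01 to HF03 and LF01 to LF03 from here on). The lowest HF pig thus had more than the highest LF pig. The log2 fold change of 2.65 ± 0.43 (± standard error, as in what follows) ranked 31 of the 11136 genes and had an adjusted p of 0.0702 in limma. By p the gene ranked 35. The exact two-sided permutation test gave p = 0.1, which is the smallest that this test allows with 3 pigs against 3. Without LF02 the adjusted p of CNN1 was 0.0199, in a range of 0.0199 to 0.238 over the alternatives. It was also under 0.05 with upper-quartile scaling (0.0480).

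The actin and the myosin of smooth muscle followed the same order of pigs. ACTA2, on chromosome 14 from 100865312 to 100886984, measured 77.9, 194 and 192 FPKM in HF01 to HF03, against 26.1, 84.5 and 37.3 FPKM in LF01 to LF03. LF02 exceeded HF01, so the groups overlapped, and the difference did not pass (log2 fold change 1.71 ± 0.49, adjusted p = 0.104 in limma). Leaving out LF02 brought the adjusted p of ACTA2 to 0.0497, its lowest value, and the highest was 0.283. ACTA2 encodes a protein nearly identical to the other muscle actins, so reads that it shares with ACTA1 could be split between them, and its level is uncertain to that extent. Of the libraries that list ACTA1 at 0, HF01 had 77.9 and HF03 192 FPKM of ACTA2, against 194 FPKM in HF02, which does not, and the part of such sharing was not tested. MYH11, on chromosome 3 from 7002705 to 7143100, measured 4.50, 23.3 and 14.9 FPKM in HF01 to HF03, against 1.38, 6.31 and 1.81 FPKM in LF01 to LF03. It varied most between pigs, by 16.8-fold from the lowest to the highest, and LF02 again lay above HF01. The log2 fold change of 2.16 ± 0.68 did not pass (adjusted p = 0.118 in limma). The span of MYH11 overlaps that of NDE1, a gene of nuclear movement, which had 1.88 to 4.94 FPKM in the HF pigs and 1.43 to 2.22 FPKM in the LF pigs.

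Transgelin and the myosin kinase were intermediate. TAGLN, an early marker of the smooth muscle lineage on chromosome 9 from 44560784 to 44567385, measured 27.9, 62.1 and 72.0 FPKM in HF01 to HF03, against 16.1, 36.2 and 15.7 FPKM in LF01 to LF03. Again LF02 had more than HF01, and the log2 fold change of 1.25 ± 0.44 did not pass (adjusted p = 0.135 in limma). Its span overlaps PCSK7, a proprotein convertase with 5.79 to 9.96 FPKM in the HF pigs and 3.91 to 7.5 FPKM in the LF pigs. MYLK, on chromosome 13 from 136619307 to 136809673, measured 10.98, 24.7 and 21.3 FPKM in HF01 to HF03, against 4.78, 8.41 and 4.09 FPKM in LF01 to LF03, without overlap. The log2 fold change was 1.69 ± 0.37, with an adjusted p of 0.0852 in limma and an exact permutation p of 0.1. Without LF02 the adjusted p of MYLK was 0.0493, in a range of 0.0493 to 0.257. The RefSeq gene of MYLK on the same assembly begins earlier, at 136509878, and whether this affects the level given here was not tested.

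Smoothelin differed less, and leiomodin did not follow the other contractile genes. SMTN, a protein of fully contractile smooth muscle cells on chromosome 14 from 47879316 to 47902699, measured 10.7, 12.7 and 16.8 FPKM in HF01 to HF03, against 6.80, 10.5 and 4.73 FPKM in LF01 to LF03. HF01 and LF02 differed by little, yet the groups did not overlap (log2 fold change 0.91 ± 0.31, adjusted p = 0.130 in limma, exact permutation p = 0.1). LMOD1, which nucleates actin filaments in smooth muscle and lies on chromosome 10 from 24164791 to 24193875, measured 8.05, 7.78 and 24.4 FPKM in HF01 to HF03, against 8.06, 5.13 and 8.0 FPKM in LF01 to LF03. HF03 alone stood out, and the other HF pigs lay within the range of the LF pigs. Its log2 fold change was 0.73 with a 95% interval from -0.26 to 1.72 (adjusted p = 0.330 in limma), and without HF03 it was 0.19. LMOD1 was also the only gene of the 10 with its lowest value in LF02.

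FLNA, the filamin of the cell cortex, measured 10.98, 20.8 and 25.1 FPKM in HF01 to HF03, against 4.66, 8.96 and 3.61 FPKM in LF01 to LF03. The groups did not overlap, and the log2 fold change of FLNA was 1.73 ± 0.40 (adjusted p = 0.0893 in limma, exact permutation p = 0.1). Without LF02 the adjusted p of FLNA was 0.0489, in a range of 0.0489 to 0.260. With CNN1, ACTA2 and MYLK, 4 of the 10 genes passed without LF02, as did 0.914% of all genes in the same direction. The others did not pass, with adjusted p in limma of 0.0581 (MYH11), 0.0607 (SMTN), 0.0664 (TAGLN), 0.0745 (PDGFRB), 0.339 (RGS5) and 0.512 (LMOD1). LF02 was the highest LF pig in 9 of the 10 genes, so leaving it out had to widen the difference in those genes. The table gives FLNA a span on chromosome X from 124889643 to 124945463, longer than the RefSeq gene on the same assembly, which ends at 124915000, and that span holds RPL10 and DNASE1L1 and overlaps TAZ. RPL10, a ribosomal protein gene and by far the most abundant of these, was at 745 to 815 FPKM in the HF pigs and 1109 to 1441 FPKM in the LF pigs, the opposite direction to FLNA.

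The intervals of both pericyte genes include 0. With all 6 pigs their fitted differences were below those of the other 8 genes, but not below that of LMOD1 in every fit that leaves out a pig. Without HF03 the log2 fold change was 0.26 for RGS5, 0.43 for PDGFRB and 0.19 for LMOD1, and without LF02 it was 0.80 for PDGFRB and 0.52 for LMOD1. RGS5, on chromosome 4 from 87286909 to 87344289, measured 44.0, 61.6 and 53.8 FPKM in HF01 to HF03, against 47.0, 50.4 and 34.5 FPKM in LF01 to LF03. The groups overlapped, and the 95% interval of its log2 fold change of 0.28 ran from -0.25 to 0.80 (adjusted p = 0.485 in limma). PDGFRB, on chromosome 2 from 151155753 to 151192816, measured 6.66, 8.12 and 8.86 FPKM in HF01 to HF03, against 4.43, 8.09 and 4.46 FPKM in LF01 to LF03. LF02 lay with the HF pigs, and the log2 fold change was 0.52 with a 95% interval from -0.10 to 1.14 (adjusted p = 0.268 in limma). PDGFRB is also made by fibroblasts, so its message is not of pericytes alone.

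**Figure D2:**
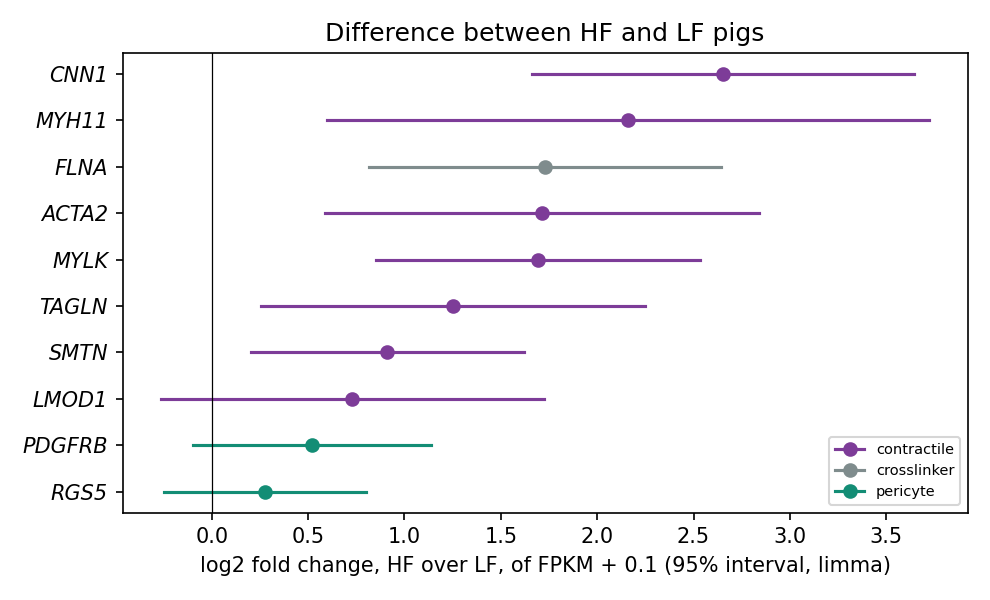
Log2 fold change of each gene, HF over LF on the scale of log2(FPKM + 0.1), with its 95% interval in limma before adjustment over genes, coloured by role. The fitted values run from 0.28 for RGS5 to 2.65 for CNN1, and the intervals of LMOD1, PDGFRB and RGS5 include 0.

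FPKM is scaled to transcript length, so levels can be ordered between genes as far as the listed spans of the genes are right. By the mean over the 6 pigs the order was ACTA2 (102 FPKM), RGS5 (48.5), TAGLN (38.3), CNN1 (20.8), MYLK (12.4), FLNA (12.3), SMTN (10.4), LMOD1 (10.2), MYH11 (8.71) and PDGFRB (6.77). The order was not the same within each group. In HF the mean of TAGLN (54.0 FPKM) was close to that of RGS5 (53.1), and MYH11 (14.2) was above SMTN and LMOD1 (13.4 each). In LF, CNN1 (6.16) was below SMTN (7.33) and LMOD1 (7.07), and MYH11 (3.17) was below PDGFRB (5.66). Of neighbours in the pooled order only TAGLN and CNN1 kept their places in all 6 pigs. The other neighbours kept them in 2 to 5 pigs and did not differ beyond their spread. ACTA2 lay above RGS5 in 5 pigs, LF01 being the exception at 26.1 against 47.0 FPKM. LF03 had only slightly more ACTA2 than RGS5, at 37.3 and 34.5 FPKM.

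The genes also differed in how far they varied from pig to pig. From the lowest to the highest pig, MYH11 spanned 16.8-fold, CNN1 12.4-fold and ACTA2 7.45-fold, whereas PDGFRB spanned 2.0-fold and RGS5 1.79-fold. FLNA spanned 6.94-fold, MYLK 6.05-fold, LMOD1 4.76-fold, TAGLN 4.59-fold and SMTN 3.56-fold. The pigs fell into nearly the same order for most genes. HF02 and HF03 lay above every LF pig in 9 of the 10 genes, all but LMOD1, and LF01 and LF03 lay below every HF pig in 8 of the 10, all but LMOD1 and RGS5. The pigs between them were HF01, the lowest HF pig in 9 genes, and LF02, the highest LF pig in 9 genes, LMOD1 being the exception in both. LF02 exceeded HF01 in 5 of the 10 genes. In most of the 10 genes the groups thus differed by a pair of high HF pigs and a pair of low LF pigs. In those genes 1 pig of each group lay near the middle. How many of all genes tested show these patterns was not counted, so whether they are particular to the 10 is not known.

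**Figure D3:**
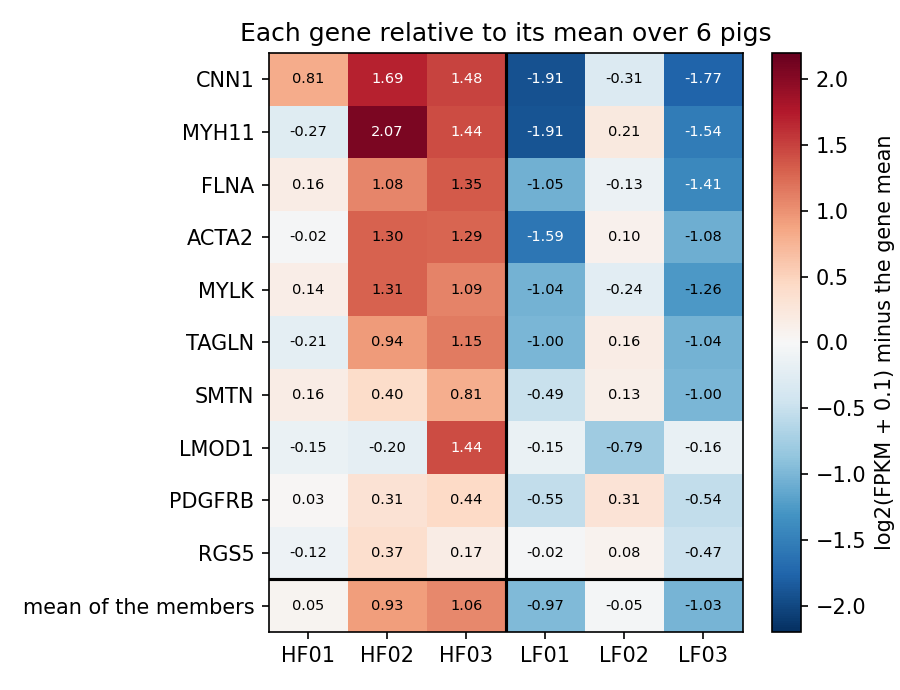
Log2(FPKM + 0.1) of each gene in each pig minus the mean of that gene over the 6 pigs, with the mean of the 10 genes in the last row. That mean was 0.05, 0.93 and 1.06 in HF01 to HF03 and -0.97, -0.05 and -1.03 in LF01 to LF03.

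Ratios between genes within a library do not depend on how libraries are scaled to each other. These ratios were chosen after the values had been seen. CNN1 over RGS5 was 0.546, 0.715 and 0.709 in HF01 to HF03, against 0.0754, 0.218 and 0.114 in LF01 to LF03. The ratio of calponin to the pericyte gene separated all pigs of the groups, as CNN1 by itself did. ACTA2, MYLK and FLNA over RGS5 were likewise higher in every HF pig, with log2 fold changes of 1.43, 1.42 and 1.45. MYLK and FLNA also separated the groups by themselves, whereas ACTA2 did not. RGS5 had the smallest fitted difference of the genes examined, so ratios to it largely repeat the differences of their numerators. For each of these 4 ratios the exact permutation test gave p = 0.1, the smallest possible, and an adjusted p of 0.225 over the 9 ratios to RGS5. MYH11, TAGLN, SMTN and LMOD1 over RGS5 overlapped between the groups. PDGFRB over RGS5, a ratio within the pericyte pair, was 0.132 to 0.165 in the HF pigs and 0.0942 to 0.160 in the LF pigs.

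Whatever the values, no ratio to ACTA2 could pass an adjusted p of 0.05, as the smallest exact permutation p is 0.1. CNN1 over ACTA2 was 0.308, 0.227 and 0.198 in HF01 to HF03, against 0.136, 0.130 and 0.105 in LF01 to LF03. TAGLN over ACTA2 had the opposite order, with 0.358, 0.319 and 0.374 in HF01 to HF03, against 0.618, 0.429 and 0.420 in LF01 to LF03. Neither ratio overlapped between the groups (exact permutation p = 0.1 for each; adjusted p = 0.225 over 9 ratios to ACTA2). MYLK and FLNA kept close to ACTA2, with ratios of 0.0995 to 0.183 (MYLK) and 0.0966 to 0.179 (FLNA) over the 6 pigs and log2 fold changes of -0.02 and 0.02. MYH11, SMTN and LMOD1 over ACTA2 overlapped between the groups, with log2 fold changes of 0.45, -0.80 and -0.98.

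Most of the genes belong to families whose other members serve striated muscle or cells in general. Of 24 such relatives 20 were tested, and by limma 0 passed. At an unadjusted p under 0.05, 7 were higher and 2 lower in HF, beside 11.0% and 13.8% of all genes tested. The lower ones were LMOD3 and ACTA1, which is listed at 0 in HF01 and HF03. ACTG2, the other actin of smooth muscle, measured 6.33, 12.4 and 16.8 FPKM in HF01 to HF03, against 0.238, 2.22 and 0.165 FPKM in LF01 to LF03. Its log2 fold change of 4.23 exceeded that of each of the 10 genes (adjusted p = 0.0778 in limma), and the groups did not overlap. The ACTG2 values of LF01 and LF03 are close to the 0.1 FPKM added before taking logs, so the size of this change depends on that constant. Sharing of reads between actins, as described for ACTA2, was not tested for ACTG2 either. The cytoplasmic actins ACTB and ACTG1 had log2 fold changes of 0.64 and 0.40 and the cardiac actin ACTC1 one of 1.39. CNN2 and CNN3, the calponins found outside smooth muscle, had 0.98 and 0.46, against 2.65 for CNN1. CNN1 over CNN3 was 1.99, 2.37 and 1.80 in HF01 to HF03, against 0.261, 0.767 and 0.421 in LF01 to LF03.

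Of the relatives of the motor and its kinase, MYH9, a non-muscle myosin, measured 9.27, 7.69 and 10.9 FPKM in HF01 to HF03, against 5.78, 6.54 and 4.38 FPKM in LF01 to LF03, a log2 fold change of 0.73. MYLK2, the kinase of skeletal muscle, was at 164 to 273 FPKM in the HF pigs and 176 to 242 FPKM in the LF pigs (log2 fold change 0.10), and MYLK over MYLK2 was higher in every HF pig. MYLK4, a further kinase of the family, had a log2 fold change of 1.61 at a low level, with 0.928 to 2.06 FPKM in the HF pigs and 0.196 to 0.520 FPKM in the LF pigs. FLNC, the filamin of striated muscle, had a log2 fold change of 0.64. The striated leiomodins differed in direction: LMOD3 was at 118 to 143 FPKM in the HF pigs and 159 to 316 FPKM in the LF pigs (log2 fold change -0.92), and LMOD2 had 0.11. The remaining relatives had log2 fold changes of -0.21 (TAGLN3), -0.27 (SMTNL2), -0.04 (RGS4), -0.29 (RGS2), -0.65 (RGS16) and 0.80 (PDGFRA), none of which passed limma. Of 16 ratios of a gene to a relative, 4 separated all HF from all LF pigs, each higher in HF (CNN1 over CNN2 and over CNN3, MYLK over MYLK2, LMOD1 over LMOD3; exact permutation p = 0.1, adjusted p = 0.291).

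**Figure D4:**
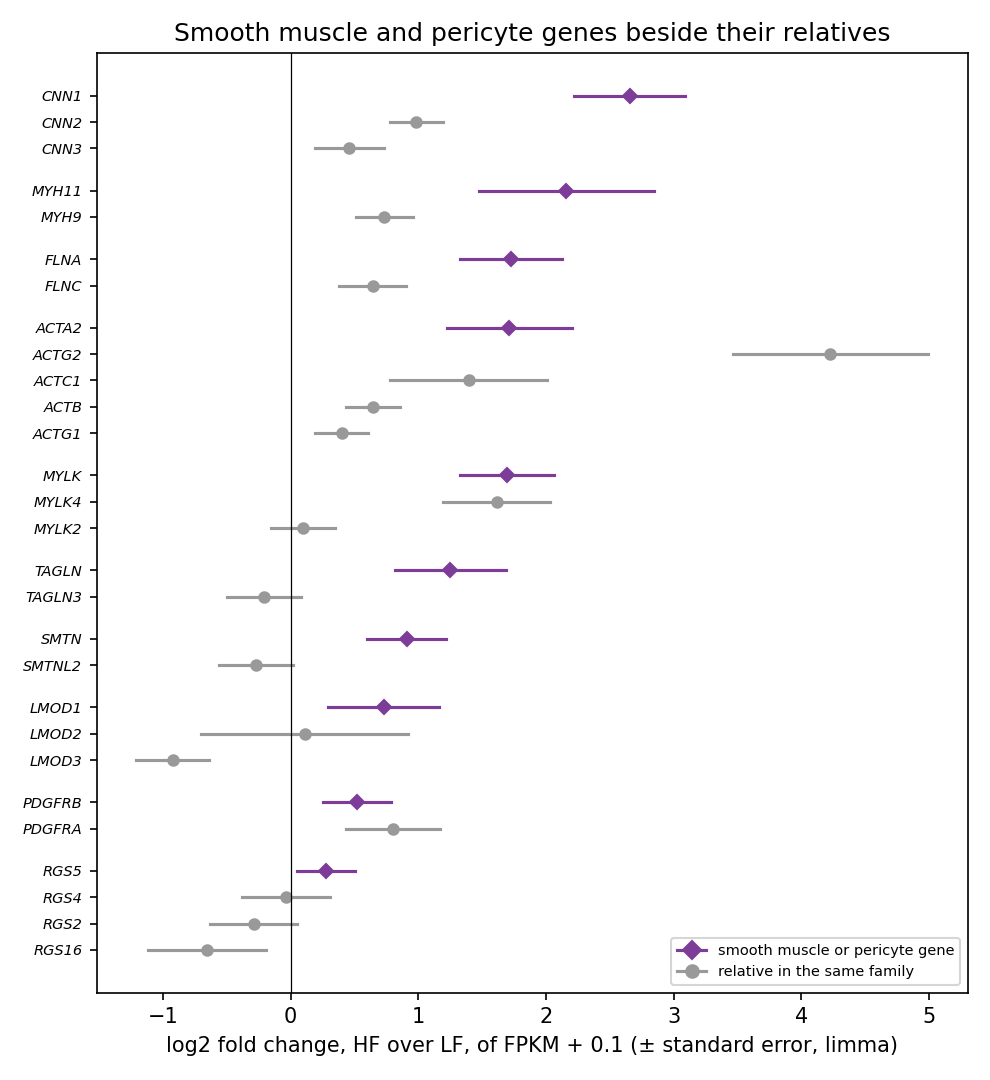
Log2 fold change with its standard error in limma, HF over LF, for each gene (diamond) and its relatives (circle) grouped by family. CNN1 at 2.65 lies right of CNN2 at 0.98 and CNN3 at 0.46, while ACTG2 at 4.23 lies right of ACTA2 at 1.71; not every relative is drawn, and ACTA1 is left out because it is listed at 0 in HF01 and HF03.

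Other genes of smooth muscle contraction gave a mixed picture. Of 17 such genes 16 were tested, 0 passed limma and 5 were higher at an unadjusted p under 0.05, beside 11.0% of all genes. On average 14 were higher, as were 48.1% of all genes, and 2 lower, with a median log2 fold change of 0.54. MYL9, the light chain that MYLK phosphorylates, measured 8.25, 17.8 and 17.1 FPKM in HF01 to HF03, against 3.23, 9.43 and 2.88 FPKM in LF01 to LF03. LF02 lay above HF01 here as it did for ACTA2 and MYH11 (log2 fold change 1.59, adjusted p = 0.11 in limma). GUCY1A1, a subunit of the nitric oxide receptor, was at 1.75 to 2.61 FPKM in the HF pigs and 0.870 to 1.15 FPKM in the LF pigs (log2 fold change 1.02, adjusted p = 0.0899). PPP1R12A, the targeting subunit of the phosphatase that reverses MYLK, had a log2 fold change of 0.70 (adjusted p = 0.103). The tropomyosins TPM1 and TPM2, which muscle fibres make in bulk, had -0.15 and 0.17.

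Genes of cell adhesion and of the actin cytoskeleton linked to it were more even in direction. All 13 were on average higher in HF, as were 48.1% of all genes tested. The median log2 fold change of the 13 was 0.77. At an unadjusted p under 0.05, 10 were higher, beside 11.0% of all genes, and 0 passed limma. VCL, vinculin of adhesion sites, measured 19.8, 25.5 and 18.8 FPKM in HF01 to HF03, against 10.6, 10.2 and 7.86 FPKM in LF01 to LF03 (log2 fold change 1.15, adjusted p = 0.0778 in limma). TPM4, a cytoskeletal tropomyosin, had a log2 fold change of 1.0 (adjusted p = 0.0808) and ACTN1, the alpha-actinin of non-striated cells, 1.67 (adjusted p = 0.0880). For VCL and TPM4 the LF02 value lay with the other LF pigs, unlike the contractile genes other than LMOD1. Among regulators, 9 of 11 were tested, and all 9 were on average higher in HF, by a median of 0.50 on the log2 scale. Of these, 3 reached an unadjusted p under 0.05, beside the same 11.0% of all genes, and 0 passed limma. SRF was at 15.5 to 17.7 FPKM in the HF pigs and 11.14 to 14.8 FPKM in the LF pigs (log2 fold change 0.31, adjusted p = 0.354 in limma). Its partner MYOCD stayed under the minimum level for testing, at 0.0379, 0.190 and 0.176 FPKM in HF01 to HF03, against 0.0786, 0.0580 and 0.0227 FPKM in LF01 to LF03. TEAD1, a factor that muscle fibres also make, was at 40.4 to 46.9 FPKM in the HF pigs and 15.7 to 27.4 FPKM in the LF pigs (log2 fold change 1.03, adjusted p = 0.0893), MRTFB, a coactivator of SRF, had 0.59 (adjusted p = 0.154), and TGFBR2, a receptor of TGF-beta, had 0.59 (adjusted p = 0.20).

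Further pericyte genes were divided. Of 12 tested, 9 were on average higher in HF, beside 48.1% of all genes, and 3 lower, the median log2 fold change being 0.40. An unadjusted p under 0.05 was reached by 5, all higher in HF, beside 11.0% of all genes, and 0 passed limma. NOTCH3, a receptor of mural cells of vessels, measured 4.53, 4.49 and 6.30 FPKM in HF01 to HF03, against 2.04, 3.22 and 1.82 FPKM in LF01 to LF03 (log2 fold change 1.10, adjusted p = 0.0899 in limma). CSPG4, the NG2 proteoglycan, had a log2 fold change of 1.33 at 0.862 to 1.48 FPKM in the HF pigs and 0.279 to 0.514 FPKM in the LF pigs (adjusted p = 0.0934). MCAM, an adhesion protein of smooth muscle and endothelium, had 1.12 (adjusted p = 0.112). KCNJ8 and ABCC9, which together form the ATP-sensitive potassium channel of vessels, had 0.10 and 0.65. Of the ligands, PDGFB, which signals through PDGFRB, was at 15.5 to 18.0 FPKM in the HF pigs and 9.0 to 17.9 FPKM in the LF pigs (log2 fold change 0.50, adjusted p = 0.291). LF02 again had a value like those of the HF pigs, as for PDGFRB. PDGFD, another ligand of that receptor, had 0.87 (adjusted p = 0.11), and PDGFC and PDGFA had -0.28 and -0.07.

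Markers of other cells in the tissue varied with the smooth muscle genes to different degrees. The mean of the 7 contractile genes, each taken relative to its own mean on the log2 scale, was 0.07, 1.07 and 1.24 in HF01 to HF03, against -1.15, -0.11 and -1.12 in LF01 to LF03. That of 11 endothelial markers was -0.0038, 0.07 and 0.41 in HF01 to HF03, against -0.16, 0.24 and -0.55 in LF01 to LF03, and their summed level lay between 115 and 148 FPKM in the HF pigs and between 84.0 and 139 FPKM in the LF pigs. Of the 11 endothelial markers 10 were on average higher in HF, as were 48.1% of all genes tested, and 1 was lower. By limma 0 endothelial markers passed, and their median log2 fold change was 0.36. At an unadjusted p under 0.05, 0 were called, beside 11.0% of all genes higher and 13.8% lower. The contractile genes thus differed between the groups by 1.59 and the endothelial markers by 0.32 on the same scale, without a test of that difference. The Schwann cell markers differed by as much as the contractile genes, 1.62, with mean relative levels of 0.39, 0.66 and 1.38 in HF01 to HF03, against -0.95, -0.32 and -1.16 in LF01 to LF03. LF02 was the highest LF pig for all 3 lists.

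All 10 fibroblast markers were on average higher, as were 48.1% of all genes tested, and their median log2 fold change was 0.93. An unadjusted p under 0.05 was reached by 5, beside 11.0% of all genes, and 0 passed limma. The summed level of these markers was 314 to 829 FPKM in the HF pigs and 294 to 358 FPKM in the LF pigs. Their mean relative level was -0.32, 0.91 and 0.61 in HF01 to HF03, against -0.29, -0.37 and -0.55 in LF01 to LF03, so HF01 lay with the LF pigs. By this mean LF02 was not the highest LF pig, unlike for the contractile genes. Single markers were divided. LF02 was the highest LF pig for COL3A1, FBN1, PDGFRA, MFAP5 and FAP, but not for LUM, COL1A1, COL1A2, DPT and DCN. HF01 lay above every LF pig for LUM, COL3A1, FBN1 and COL1A1, but not for the other markers of the list. LUM, a proteoglycan of the matrix, had the smallest p of the list (log2 fold change 1.09, adjusted p = 0.0702 in limma). The median log2 fold change of 4 Schwann cell markers tested was 1.66. The summed level of the Schwann cell list was 45.5 to 101 FPKM in the HF pigs and 30.8 to 38.0 FPKM in the LF pigs. Of the 4, 3 were higher at an unadjusted p under 0.05, beside 11.0% of all genes, and 0 passed limma. The remaining one, the myelin gene MBP, had 7.5, 10.99 and 16.6 FPKM in HF01 to HF03, against 12.9, 12.4 and 14.3 FPKM in LF01 to LF03 (log2 fold change -0.24).

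No adipocyte, macrophage or muscle fibre marker passed even an unadjusted p of 0.05, beside 11.0% of all genes higher and 13.8% lower. The 4 adipocyte markers tested were on average higher in HF, by a median of 1.02 on the log2 scale, and their summed level was 77.0 to 194 FPKM in the HF pigs and 53.5 to 131 FPKM in the LF pigs. The 6 macrophage markers tested were also all on average higher, by a median of 0.22. Of the 10 muscle fibre markers 4 were on average higher and 6 lower, with a median of -0.22. Over all genes tested 48.1% were on average higher. HF01 was the lowest pig of its group for adipocyte and macrophage markers, with mean relative levels of -1.28 and -0.68. Haemoglobin HBB was at 65.0 to 115 FPKM in the HF pigs and 26.1 to 92.1 FPKM in the LF pigs, while the other red cell genes SLC4A1 and AHSP are listed at 0 in 5 and 3 libraries. No marker of the endothelial, fibroblast, adipocyte, macrophage, Schwann cell or fibre lists is listed at 0 in a library. The part of each of these cell types in the values of the smooth muscle genes was not tested.

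**Figure D5:**
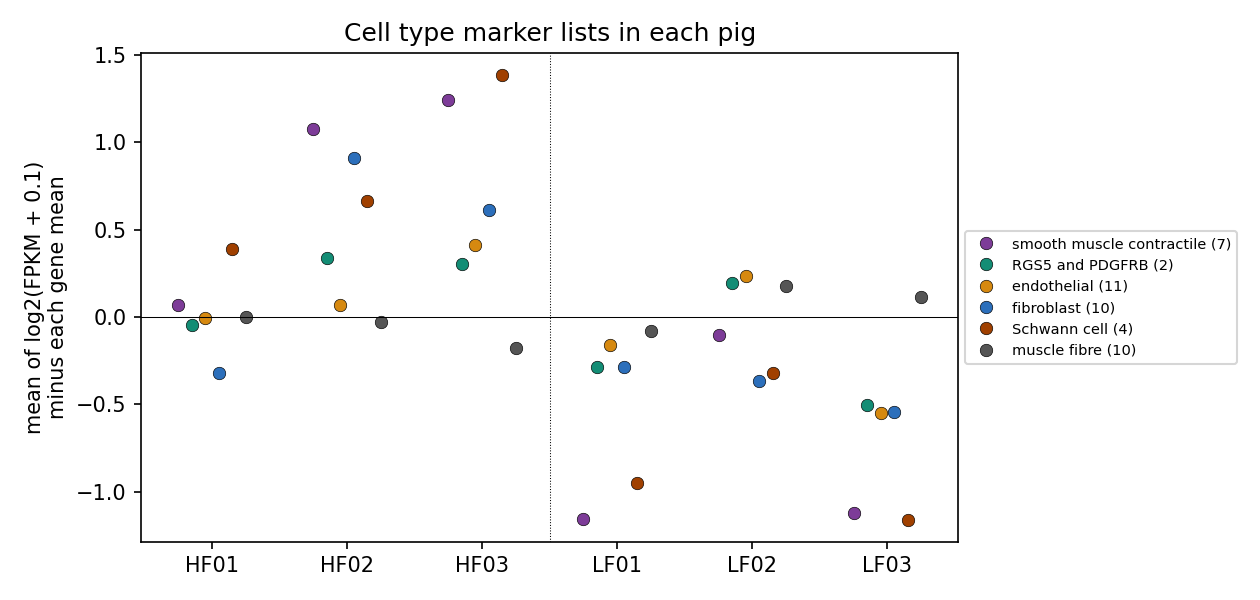
Mean over each marker list of log2(FPKM + 0.1) minus each gene's mean over the pigs, 1 point per list and pig, with the number of genes tested in brackets. The contractile genes (purple) run from -1.15 in LF01 to 1.24 in HF03, the endothelial markers from -0.55 in LF03 to 0.41 in HF03.

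The mean profile of the 10 genes over the 6 pigs was compared with those of 9169 other named genes that averaged 1 FPKM or more, by the root mean square distance between the profiles on the log2 scale. The nearest was SEMA3B, a secreted semaphorin, at a distance of 0.10, with 2.39, 4.03 and 4.51 FPKM in HF01 to HF03, against 0.986, 1.72 and 0.981 FPKM in LF01 to LF03. The next were CREB3L1, a transcription factor bound to the endoplasmic reticulum (0.14), MCAM (0.15), AIF1L, an actin-binding protein (0.18), SLC8A1, the sodium-calcium exchanger (0.18), and HMCN2, a large matrix protein (0.19). The median distance over the 9169 genes was 0.89. The 10 genes themselves lay at a median distance of 0.39 from their mean, and only TAGLN, at 0.14, was as near as these 6. These distances describe 6 pigs and were not tested.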

How the data were processed

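RNA of the longissimus dorsi of 3 HF and 3 LF pigs was sequenced with paired ends, 1 library per pig. The deposited FPKM values were computed by the authors with cufflinks from fastp-filtered reads that HISAT2 had placed on Sscrofa11.1. Whether strand was used is not given in the sources used here. The table also holds the authors' own DESeq2 comparison (fold changes, p-values), which was not used, and 0 columns of single pigs were left unmapped. Log2(FPKM + 0.1) was compared with limma (version 3.58.1, R 4.3.3; eBayes with a mean trend, two-sided, no covariate) for genes averaging 0.5 FPKM or more, with Benjamini-Hochberg adjustment over all of them; the fit was tested on simulated data. This log-scale test stands in for the authors' count model because the deposited values are FPKM. Single genes and ratios were compared by exact two-sided permutation over the 10 splits of 3 and 3 pigs. The members and gene lists were chosen with earlier results of these data known. Named genes are the 10 members, their relatives, up to 3 genes of smallest p in each other list, single genes chosen after their values were seen, and the 6 genes nearest in profile; some genes that this rule names are not reported here. Of the symbols missing in the table, 1088 were filled by gene ID. Alternatives were other pseudocounts, filters, scalings and variance models, the replicate number as a block, and each pig left out. Promoter sequences were not analysed here.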

Additional observations from a re-analysis of the deposited data

How the results depend on the processing

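Over 15 alternatives, the 150 refitted log2 fold changes of the 10 genes all kept a positive sign. The other filters, the other variance models and the replicate block leave these fold changes as they are, so their signs could not change. Of the 150, 144 stayed on the same side of an adjusted p of 0.05 in limma. The 6 that passed were CNN1, ACTA2, MYLK and FLNA without LF02, and CNN1 with upper-quartile scaling and with the replicate block. The number of the 10 genes called was 1 with upper-quartile scaling, 1 with the replicate block and 3 at an adjusted p under 0.10, and 0 to 4 with each pig left out in turn. Their median log2 fold change ran from 1.20 to 1.86 with each pig left out.

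Over all genes tested, 4 were higher and 4 lower in HF. The number higher was 2 with a pseudocount of 1, 0 without a filter, 2 at a mean of at least 5 FPKM, 12 with median-of-ratios scaling, 72 with upper-quartile scaling, 9 with robust eBayes, 1 without a mean trend and 315 at an adjusted p under 0.10. The number lower was 1 without a filter, 8 with median-of-ratios scaling, 10 with upper-quartile scaling, 1 without a mean trend and 389 at an adjusted p under 0.10. With each pig left out, 0 to 102 were higher and 1 to 124 lower, the most without LF02. Upper-quartile scaling moved the median of all genes tested to 0.13. The cause of these shifts was not tested.

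The replicate numbers gave no sign of pairing the pigs. Deviations of same-numbered pigs from their group means correlated at -0.04, 0.09 and 0.02 for numbers 1, 2 and 3. Of same-numbered pigs, only HF02 and LF02 correlated best with each other. HF01 with LF03 and HF03 with LF01, of unlike number, did so too (0.08 and 0.05). With 3 pigs a group, correlations this small cannot exclude a pairing. With the replicate block, 6 genes were higher and 8 lower, and the adjusted p of CNN1 was 0.0418. With 3 pigs a group, the exact two-sided permutation test used here cannot go below p = 0.1.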
